A study of Mus musculus with 69 samples.

Results

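The regions described here were H3K27ac regions of mouse haematopoietic progenitor cells (HPCs) that were listed after PBS in both genotypes and in neither genotype after interleukin-1 (IL-1). They were chosen by the presence and absence of peaks in 4 deposited lists: a wild-type PBS region had to overlap a knockout PBS peak and no peak of the wild-type or the knockout IL-1 list, on the 19 autosomes. This gave 1859 regions of the 40754 in the wild-type PBS list. They are called lost regions below, and the word stands for the absence of a listed peak, not for a measured change in signal.

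The 4 lists came from HPCs of mice aged 8 to 10 weeks. The wild-type and knockout mice received vehicle (PBS) for 3 days, or 0.5 micrograms of IL-1 per day for 3 days. The knockout carried both Kmt2c alleles in floxed form together with Vav-Cre (Kmt2c f/f; Vav-Cre), a transgene whose promoter is active in blood-forming cells and in some endothelium, so the deletion was not limited to HPCs. The labels describe the other genotype as wild type and do not say whether it carried Cre. Each group had 4 libraries but 1 pooled peak list, so there was no replicate error, no test between treatments was possible and no p-value is given. The labels do not give the surface markers by which HPCs were sorted, nor do they say which libraries came from separate animals. In such bulk material, fewer cells of a kind and less mark per cell cannot be told apart. In every one of the 4 lists, all 8 progenitor marker genes checked (Kit, Cd34, Flt3, Myb, Runx1, Spi1, Cebpa and Mpo) had a peak within 1 kb of a gene start or end, and 0 of 6 genes silent in blood had one. Such a peak was also listed in all 4 for 3 of 8 lymphocyte markers, Klrb1c and Nkg7 among them, and for 2 of 6 stromal and endothelial markers (Pdgfrb and Pecam1). Of 5 neutrophil markers, 2 (Cxcr2 and Ltf) had one in both wild-type lists and 0 in both knockout lists, and of 3 erythroid markers Hbb-bt had one except in the knockout PBS list. These did not separate PBS from IL-1 in both genotypes, and their part in the results was not tested.

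H3K27ac is laid down by the acetyltransferases p300 and CBP and marks active enhancers and promoters, and it is removed by histone deacetylases when an element falls silent. H3K4me1, which the product of Kmt2c (MLL3) and its paralogue MLL4 place at enhancers, can remain at an enhancer that has no H3K27ac. IL-1 signals through its receptor, MyD88 and the IRAK kinases to NF-kB, and drives haematopoietic stem cells (HSCs) and progenitors towards myeloid output.

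Most lost regions lay away from promoters, but 10 of them enclosed a whole annotated promoter window (250 bases before to 50 bases after a gene start) of 10 genes. In 5 of the 10 the nearest IL-1 peak was more than 10 kb away in both IL-1 lists. The 4 of these with a searched motif are shown because they are the places where a complete promoter was under a lost region with no IL-1 peak nearby. Each line gives the 250 bases before the gene start, 5′ to 3′ on the strand of the gene, from RefSeq on GRCm38, and the capitals mark matches, on either strand, to the motifs named after the sequences.
Psd4: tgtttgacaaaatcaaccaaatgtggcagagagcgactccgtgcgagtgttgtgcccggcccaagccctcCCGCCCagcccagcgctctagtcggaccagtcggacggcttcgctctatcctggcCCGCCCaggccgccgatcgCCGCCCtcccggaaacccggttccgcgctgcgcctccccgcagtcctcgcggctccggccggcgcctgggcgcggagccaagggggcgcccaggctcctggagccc
Tcf7l1: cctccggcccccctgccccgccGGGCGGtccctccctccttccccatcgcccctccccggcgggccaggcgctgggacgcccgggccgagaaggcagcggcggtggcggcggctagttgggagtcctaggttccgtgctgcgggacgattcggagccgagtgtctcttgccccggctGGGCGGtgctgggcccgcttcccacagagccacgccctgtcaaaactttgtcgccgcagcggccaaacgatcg
Cd276: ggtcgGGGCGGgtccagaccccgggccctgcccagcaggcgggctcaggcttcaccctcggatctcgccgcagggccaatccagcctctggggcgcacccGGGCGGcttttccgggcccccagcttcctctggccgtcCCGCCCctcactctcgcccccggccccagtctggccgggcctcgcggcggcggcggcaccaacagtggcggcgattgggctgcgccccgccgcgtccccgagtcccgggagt
Epb42: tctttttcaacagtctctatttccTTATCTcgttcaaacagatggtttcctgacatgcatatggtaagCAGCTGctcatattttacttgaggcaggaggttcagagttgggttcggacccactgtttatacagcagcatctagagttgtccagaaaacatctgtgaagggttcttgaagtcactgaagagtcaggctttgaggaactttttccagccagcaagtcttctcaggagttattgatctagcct

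Psd4 encodes an exchange factor for the small GTPase Arf6, and the stretch shown is chr2:24367425-24367674 on the plus strand. The lost region at chr2:24367188-24367949 had a −log10 p of 5.56 and a fold enrichment of 3.88 in the wild-type PBS list, and 4.44 and 3.17 in the knockout PBS list. The nearest IL-1 peaks lay 14623 bp away in wild type and 14871 bp away in knockout. The Psd4 capitals are 3 matches of GGGCGG, the KLF and SP motif. Tcf7l1 encodes a transcription factor of the TCF/LEF family that represses Wnt target genes, and its stretch is chr6:72789046-72789295 on the minus strand. Its lost region, chr6:72788859-72789607, had PBS −log10 p values of 4.16 (wild type) and 6.17 (knockout), lay 20394 and 20197 bp from the nearest wild-type and knockout IL-1 peaks, and overlapped no peak of any HSC H3K27ac or HPC H3K4me1 list. The Tcf7l1 promoter held 2 matches of GGGCGG. Cd276 encodes the immune checkpoint ligand B7-H3, and its stretch is chr9:58555034-58555283 on the minus strand, with 3 matches of GGGCGG. Its lost region, chr9:58554529-58555530, had −log10 p values of 5.56 and 3.19 after PBS in wild type and knockout and lay 11944 and 16664 bp from the nearest IL-1 peaks. Epb42 encodes protein 4.2 of the red cell membrane, and its stretch is chr2:121036878-121037127 on the minus strand, with 1 match of AGATAA, the motif of GATA factors, and 1 of the E-box CAGCTG. Its lost region, chr2:121036672-121037260, had −log10 p values of 2.55 and 4.84, the first below the lower quartile of lost regions (3.51), and lay 27674 and 27680 bp from the nearest IL-1 peaks. The Cd276 and Epb42 regions overlapped a peak in all 4 HSC H3K27ac lists and all 3 HPC H3K4me1 lists. The fifth promoter, that of 1700016H13Rik, held none of the motifs searched.

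The promoter windows under lost regions were few and were less rich in CpG than those under regions kept in all 4 HPC lists. Of 20084 autosomal windows of protein-coding genes in the RefSeq table, which is not complete, 56 windows of 52 genes overlapped a lost region by at least 1 bp and 9089 overlapped a kept region. The median number of CpG was 13.0 under lost regions, 22.0 under kept regions and 14 over all windows. GGGCGG, searched on both strands like all motifs here, was present in 28 of 56 windows under lost regions (Wilson 95% interval 37.3% to 62.7%), in 67.6% under kept regions (66.6 to 68.5) and in 47.0% of all windows. The ETS motif CCGGAAGT was in 0 of 56 windows under lost regions (Wilson upper bound 6.42%), 10.2% under kept regions and 5.28% of all windows. TGANTCA, the AP-1 motif, was in 14.3% under lost regions (7.42 to 25.7), 4.29% under kept regions and 7.06% of all windows. For the other 7 motifs (GAGGAAGT for PU.1, TTGCNNCAA for C/EBP, TGTGGT for RUNX, GAAANNGAA for IRF, TTCNNNGAA for STAT, and the GATA and E-box letters above) the share under kept regions lay inside the interval of the lost regions. GAGGAAGT and CCGGAAGT share their ending, GGAAGT. Windows of 1 gene can overlap each other, so they are not independent. The sequence of whole regions was not used here.

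The lost regions were a small share of what the lists lost in all. After IL-1, 22.7% of wild-type PBS regions had no wild-type IL-1 peak, and 25.8% of knockout PBS regions had no knockout IL-1 peak. Of the 29941 wild-type PBS regions with a knockout PBS peak, 6.21% were absent from both IL-1 lists, 1008 were absent in wild type only, 2891 in knockout only, and 24183 were kept in all 4 lists. The rule with the treatments exchanged gave 1418 gained regions, that is 5.11% of the wild-type IL-1 regions with a knockout IL-1 peak, where 21.9% of all wild-type IL-1 regions had no wild-type PBS peak. Lost regions thus outnumbered gained regions 1.31 times (1859 to 1418), and this order turned to 0.229 times when the 4 lists were limited to equal covered bases. The 4 lists covered 45.4 Mb (wild-type PBS), 42.5 Mb (knockout PBS), 44.3 Mb (wild-type IL-1) and 36.4 Mb (knockout IL-1), so the knockout IL-1 list was the smallest in covered length although it held 38717 regions.

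In the wild-type PBS list the lost regions were weak and narrow peaks, which the rule itself favours. The values in this paragraph are therefore a description. Peak strength is given as the −log10 p of the authors' peak caller and as its percentile within the list. In the wild-type PBS list the lost regions had a median −log10 p of 4.16 (range 2.02 to 11.4), a median fold enrichment of 3.17 and a median width of 361 bp, where kept regions had 11.3, 5.53 and 1307 bp. In the knockout PBS list the peaks at lost regions had a median −log10 p of 4.24 and a median fold enrichment of 3.11. The highest values there were 161 and 34.2, at a percentile of 99.6, so a strong knockout PBS peak could overlap a lost region. The highest percentile of a lost region in the wild-type PBS list was 70.7. The wild-type PBS list was divided into 4 bands, each 25% of it by −log10 p. Among regions shared by both PBS lists, 23.0% of the weakest band, 12.7% of the second, 1.90% of the third and 0 of 10215 in the strongest were lost, the last allowing a share of up to 0.0294% (3 counts of the total). The gained regions followed the same course, with 23.6%, 10.7%, 1.44% and 0.0100% over the bands of the wild-type IL-1 list. Weak peaks came and went in both directions, and no region of the strongest band of the wild-type PBS list was among the lost.

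**Figure D1:**
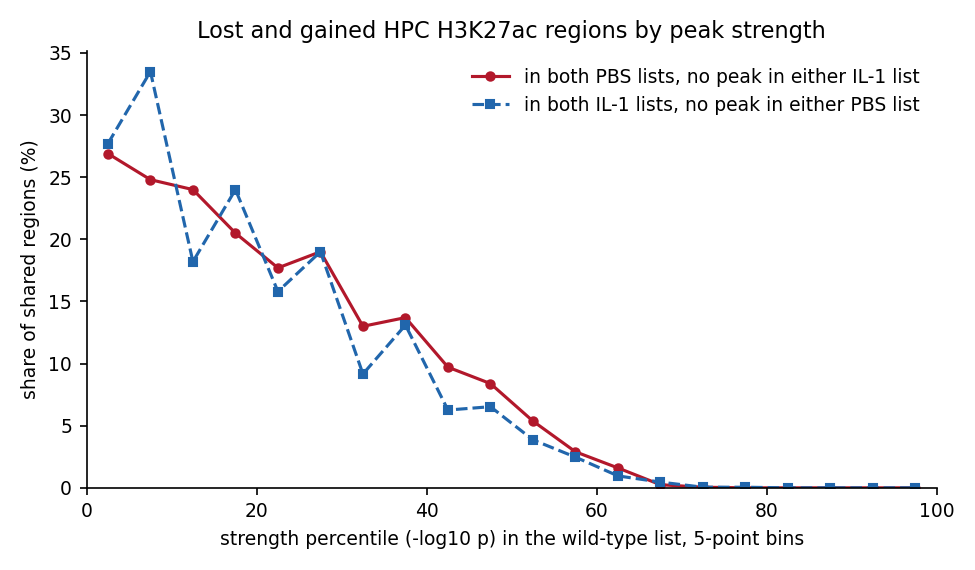
Share of regions lost (red circles) or gained (blue squares) in both genotypes, in percent, against the strength percentile of the region in the wild-type PBS or wild-type IL-1 list in bins of 5 points. The shares are 26.9% and 27.7% in the weakest bin and 0 in the 4 strongest bins.

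Many lost regions lay beside a peak that was still listed after IL-1. The median distance from a lost region to the nearest peak of either IL-1 list was 465 bp, and 950 of the 1859 (51.1%, interval 48.8 to 53.4) had such a peak within 500 bp. In 502 both IL-1 lists had a peak within 500 bp. At 424 lost regions (22.8%) the overlapping knockout PBS region itself reached an IL-1 peak. At the other end, 412 lost regions (22.2%, interval 20.3 to 24.1) had no IL-1 peak of either genotype within 10 kb, and 139 (7.48%) had none within 50 kb. The neighbourhood was dense before treatment too: 1084 lost regions (58.3%) had another region of the wild-type PBS list within 500 bp. At the edge of the rule, 33 lost regions had an IL-1 peak within 20 bp (median −log10 p 4.15), and 52 regions were left out although at most 20 of their bases lay under an IL-1 peak (median 3.53).

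**Figure D2:**
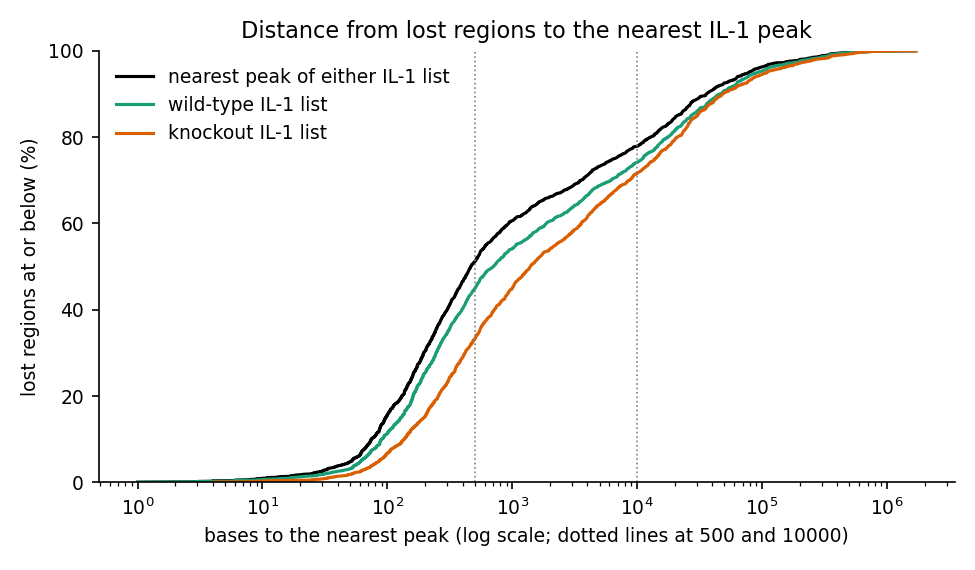
Cumulative share of the 1859 lost regions, in percent, against the distance in bases (log scale) to the nearest peak of the wild-type IL-1 list (green), the knockout IL-1 list (orange) or either (black). The black curve crosses 51.1% at 500 bp and 77.8% at 10000 bp.

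The 10 lost regions that ranked highest in both PBS lists split into regions far from any IL-1 peak and regions within about 1 kb of one. The first kind included a region within Chrm3, which encodes the M3 muscarinic acetylcholine receptor, at chr13:10053786-10055804. Its PBS −log10 p was 8.72 (wild type) and 8.92 (knockout), and the nearest IL-1 peaks lay 164280 and 164225 bp away. A region 2833 bp from Arhgef5, which encodes an exchange factor of small GTPases, at chr6:43292154-43292760, had values of 9.58 and 8.92 after PBS and lay 25247 and 25574 bp from the nearest IL-1 peaks. A region 6061 bp from Cd276, at chr9:58517493-58518238, had 8.41 and 7.68 and lay 19115 and 19387 bp away. This is a second lost region by Cd276, beside the one over its promoter.

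Of the 10, 6 had an IL-1 peak close by. The region 3451 bp from the predicted gene Gm29797 (chr2:181663066-181664245) had the highest rank of all, with −log10 p values of 9.26 and 9.76 after PBS, and a knockout IL-1 peak of 4.21 lay 526 bp away. The region within Esam, which encodes an adhesion molecule of endothelium and of HSCs, was at chr9:37529746-37530203, with values of 7.65 and 8.11, and IL-1 peaks lay 179 bp away in wild type and 80 bp away in knockout. The regions within Ppme1 (the methylesterase of the phosphatase PP2A) and H2-T24 (a non-classical MHC class I gene), 1580 bp from Wdfy4 (needed for cross-presentation by dendritic cells) and 60103 bp from Myl10 (a myosin light chain) each had a wild-type IL-1 peak between 158 and 305 bp away. The wild-type PBS −log10 p of these 4 was between 7.09 and 8.72. At H2-T24 the knockout PBS region was far stronger, at 29.0, and itself reached an IL-1 peak, as did those at Ppme1 and Esam. Of the 10 regions, 6 overlapped a peak in all 4 HSC H3K27ac lists. All lay in the third band of strength of the wild-type PBS list, where 45.0% of lost and 66.1% of kept regions did so.

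The 5 widest lost regions measured between 1585 and 2089 bp. Among them were regions within Ephb2 (an ephrin receptor kinase), Chrm3 and Trim9 (a ubiquitin ligase of neurons), and one 362948 bp from Acvr2a (an activin receptor). The Ephb2 region had a wild-type IL-1 peak with a −log10 p of 14.4 at 62 bp. The Acvr2a region lay 67008 and 94964 bp from the nearest IL-1 peaks.

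Among the 139 lost regions more than 50 kb from any IL-1 peak, the 10 strongest were picked after the distances had been seen. The genes nearest to them included, beside Chrm3, Myo6, Pkp4, Nr5a2, Tnfrsf11b, Fry, Col8a1, Vrk2 and Pdgfb. The region within Tnfrsf11b, the gene of osteoprotegerin, a decoy receptor for RANKL, was at chr15:54251752-54252210 and had values of 8.72 and 5.82 after PBS, with IL-1 peaks 349149 and 349187 bp away. The region within Pdgfb, the gene of a platelet-derived growth factor chain, was at chr15:80004463-80004889, with values of 6.65 and 5.57 and IL-1 peaks 71663 and 71646 bp away. The region at chr1:137218167-137218782, nearest to Nr5a2 at 257718 bp, had 5.56 and 9.76 after PBS and a peak of 18 in wild-type HSCs after PBS (values of separate lists are not on 1 scale). Of these 10 regions, 7 overlapped a peak in all 4 HSC H3K27ac lists. The same held for 41.7% of the 412 lost regions with no IL-1 peak within 10 kb. It held for 29.9% of all lost and 71.8% of kept regions. Among lost regions it was 25.4% in the weakest band of strength and 45.0% in the strongest band that held any. The 10 were picked for strength, so their count is a description.

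Whether lost regions carried H3K27ac in other cells was measured in lists that played no part in the rule. Wild-type and knockout mice of 16 weeks received PBS or 5FU (5-fluorouracil, which is toxic to cycling cells) at 150 mg/kg, 3 doses spaced 3 weeks apart, and their HSCs gave 4 H3K27ac lists. In wild-type HSCs after PBS, 51.4% of lost regions overlapped a peak (956 of 1859, interval 49.2 to 53.7), against 19.6% of gained regions (17.6 to 21.8) and 82.7% of kept regions (82.2 to 83.2), where the share over all wild-type PBS regions was 67.2%. In the other 3 HSC lists the shares of lost and gained regions were 41.9% and 15.4% (knockout PBS), 54.9% and 24.5% (wild-type 5FU) and 47.7% and 20.8% (knockout 5FU). Lost regions were thus above gained regions in each HSC list by more than 25 percentage points, although both sets had like median widths (361 and 344 bp) and like median percentiles (26.9 and 25.6). The gap was there in each band of strength that held lost regions, at 45.6% and 21.2%, 53.1% and 18.3%, and 71.1% and 17.2%. With lists of equal covered bases the shares in wild-type HSCs after PBS were 76.4% of lost and 43.3% of gained regions. By rule, lost regions have and gained regions lack a PBS peak in both genotypes. None of the 4 HSC lists came from mice given IL-1, and 2 of them came from PBS-treated mice. The rule can thus favour a gap in this direction in all 4 lists, and its part was not tested.

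Against kept regions of like strength the lost regions differed less. In the weakest band 45.6% of lost (42.2 to 48.9) and 48.4% of kept regions (46.0 to 50.8) had a wild-type HSC PBS peak, and the intervals overlapped. In the second band the shares were 53.1% (49.7 to 56.5) and 58.9% (57.3 to 60.4), and in the third 71.1% (64.1 to 77.2) and 81.4% (80.5 to 82.2). Kept regions of the same bands were wider, at medians of 405 and 1082 bp against 310 and 582 bp, and a wider region has more room to overlap a peak. That part was not tested. The 412 isolated lost regions, with no IL-1 peak within 10 kb, had the mark in wild-type HSCs after PBS in 61.7% (56.9 to 66.2), and those within 500 bp of an IL-1 peak in 47.7% (44.5 to 50.9). In all, 29.9% of lost regions had a peak in all 4 HSC H3K27ac lists, against 71.8% of kept and 9.03% of gained regions, and 31.3%, 9.41% and 63.7% had one in none.

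**Figure D3:**
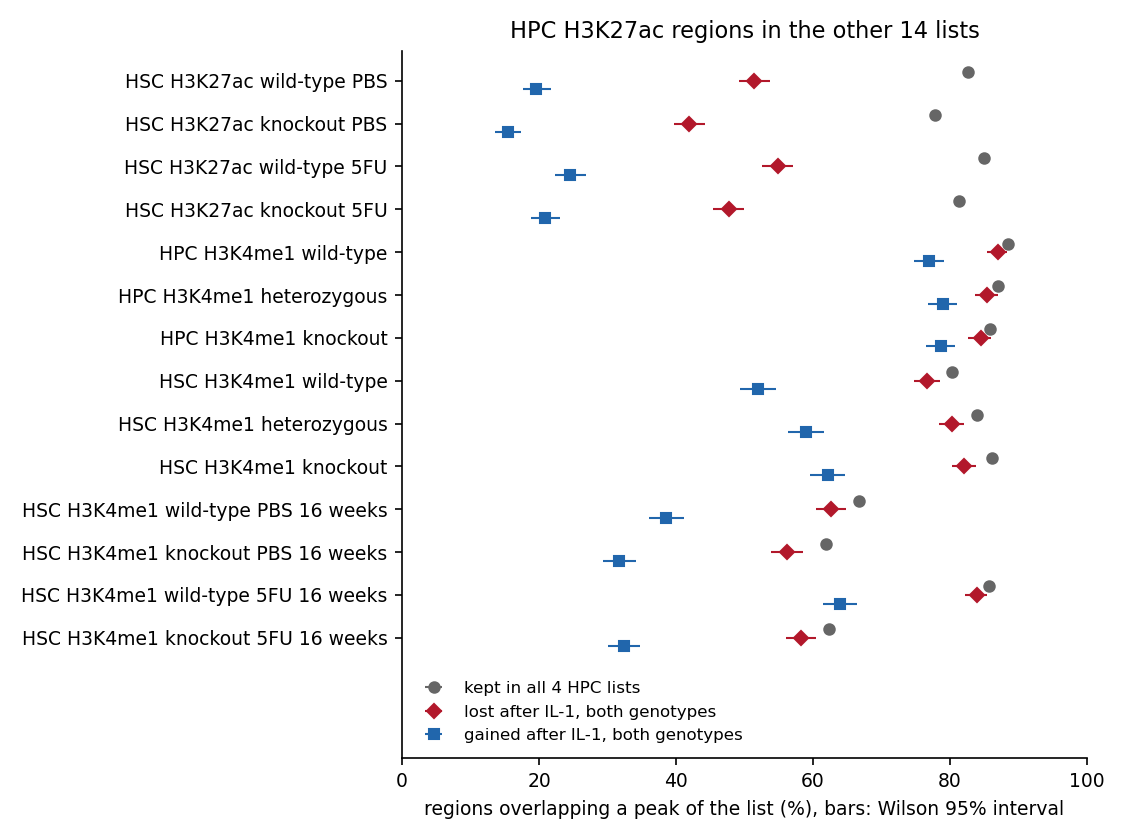
Share of kept (grey circles), lost (red diamonds) and gained (blue squares) HPC H3K27ac regions that overlap a peak of each of the 14 lists not used by the rule, in percent with Wilson 95% intervals for counting error. Lost regions lie near kept regions for H3K4me1 and between kept and gained regions for HSC H3K27ac.

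The enhancer mark H3K4me1 was present at most lost regions in untreated mice of 8 weeks. In wild-type HPCs 87.0% of lost regions (85.4 to 88.4) overlapped an H3K4me1 peak, the same as the 87.0% over all wild-type PBS regions, and near the 88.5% of kept regions (88.1 to 88.9). Gained regions had 77.0% (74.7 to 79.1), but with lists of equal covered bases the shares were 92.9% of lost (89.2 to 95.3) and 90.6% of gained regions (88.8 to 92.1), whose intervals overlap. In heterozygous (Kmt2c f/+; Vav-Cre) and knockout HPCs the shares of lost regions were 85.4% and 84.5%. Between the wild-type and knockout lists, 110 lost regions (5.92%) had H3K4me1 in wild type only and 63 (3.39%) in knockout only, where kept regions had 5.52% and 2.92%. In wild-type HSCs of 8 weeks 76.7% of lost regions (74.7 to 78.5) had an H3K4me1 peak, against 80.3% of kept (79.8 to 80.8) and 52.0% of gained regions (49.4 to 54.6), where all wild-type PBS regions had 77.0%. The share of regions with H3K4me1 in wild-type HPCs but not in wild-type HSCs was 13.5% of lost, 10.6% of kept and 28.8% of gained regions. These mice received no IL-1 either, so the rule can favour lost over gained regions here too. None of the 14 other lists held a peak at 42 lost regions (2.26%).

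Lost regions were mostly distal. Only 9.63% (179 regions, interval 8.37 to 11.1) lay within 1 kb of the start of a protein-coding gene, or of either end of a gene for which no start was given, against 40.0% of kept and 4.16% of gained regions (3.24 to 5.33), where all wild-type PBS regions had 26.3%. Within the 3 weaker bands of strength the share was 8.66%, 10.8% and 8.89% for lost and 17.3%, 19.6% and 26.0% for kept regions, so it was lower for lost regions in each. Protein-coding genes held 63.0% of lost regions (60.8 to 65.2), against 74.8% of kept, 64.6% of gained and 71.4% of all wild-type PBS regions. In the weakest band lost and kept regions had 66.9% and 66.6%, in the second 61.0% and 67.0%, and in the third 53.9% and 69.3%. Kept regions of these bands were wider, at medians of 405, 570 and 1082 bp against 310, 397 and 582 bp. A wider region has more room to reach a gene or its start, and that part was not tested. The lost regions were spread over all 19 autosomes, from 4.47% of the shared PBS regions of chromosome 19 to 7.80% of those of chromosome 12. Of 919 autosomal microRNA hairpins, those of Mir671 and Mir330 overlapped a lost region, 1 of them wholly inside and 1 partly. Kept regions were not searched for hairpins.

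Of the 15781 protein-coding genes within 50 kb of a wild-type PBS region, 21.2% (3340) had a lost region within 50 kb, and 14.0% had a gained region. Most had 1 lost region (2592 genes), and 152 genes had 3 or more. The highest number, 7, was found at Cuedc1, Runx2, Msi2 and Arid1b. Of the wild-type PBS regions within 50 kb, this was 24.1% at Cuedc1, 11.1% at Runx2, 6.67% at Msi2 and 7.61% at Arid1b. The same share over all genes was 4.25%. A gene with more regions near it has more that can be lost, so the order by number is not one by share. Syt2, with 5 lost regions, had 41.7%. The part of gene length and of region number was not tested. Cuedc1, named for its ubiquitin-binding CUE domain, lies at chr11:88099146-88194140 and had 0 gained regions. Around it the wild-type list went from 29 regions after PBS to 17 after IL-1, and the knockout list from 25 to 15. The covered length there was 30.5 kb and 17.6 kb in wild type and 20.5 kb and 10.3 kb in knockout. Genes chosen for their lost regions have less covered length after IL-1 by that choice, so these values are a description. Of the 152 genes with 3 or more lost regions, 85.5% had less after IL-1 in wild type and 100% in knockout, where all 15781 genes had 55.2% and 83.0%.

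Syt2, which encodes a calcium sensor of vesicle fusion, had 5 lost regions, and its neighbourhood went from 12 regions to 3 in wild type and from 9 to 4 in knockout. Agap1, which encodes a GTPase-activating protein of Arf proteins, had 5 lost regions, with 19 regions going to 10 in wild type and 19 to 13 in knockout. Gse1 had 6, with 73 going to 49 and 59 to 38. At Msi2, the gene of an RNA-binding protein that sustains HSCs, 7 regions were lost, and the lists held 105 and 88 regions in wild type and 72 and 63 in knockout. Runx2 and Arid1b held more regions after IL-1. Arid1b, a subunit gene of the BAF chromatin remodeller, had 7 lost and 3 gained regions, and its wild-type count went up from 92 after PBS to 116 after IL-1, while its covered length went from 103 kb to 96.6 kb in wild type and from 81.8 kb to 59.4 kb in knockout. Runx2, a Runt-family factor best known from bone, had 63 regions after PBS and 64 after IL-1 in wild type, and 58 and 64 in knockout. Its covered length went from 84.4 kb to 76.0 kb and from 73.1 kb to 50.3 kb. Ptpre, a receptor-type tyrosine phosphatase, had 6 lost regions. Tet3, a dioxygenase that oxidises 5-methylcytosine, and its neighbour Dguok, the mitochondrial deoxyguanosine kinase, had 5 each, in windows that overlap. No gene was tested.

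**Figure D4:**
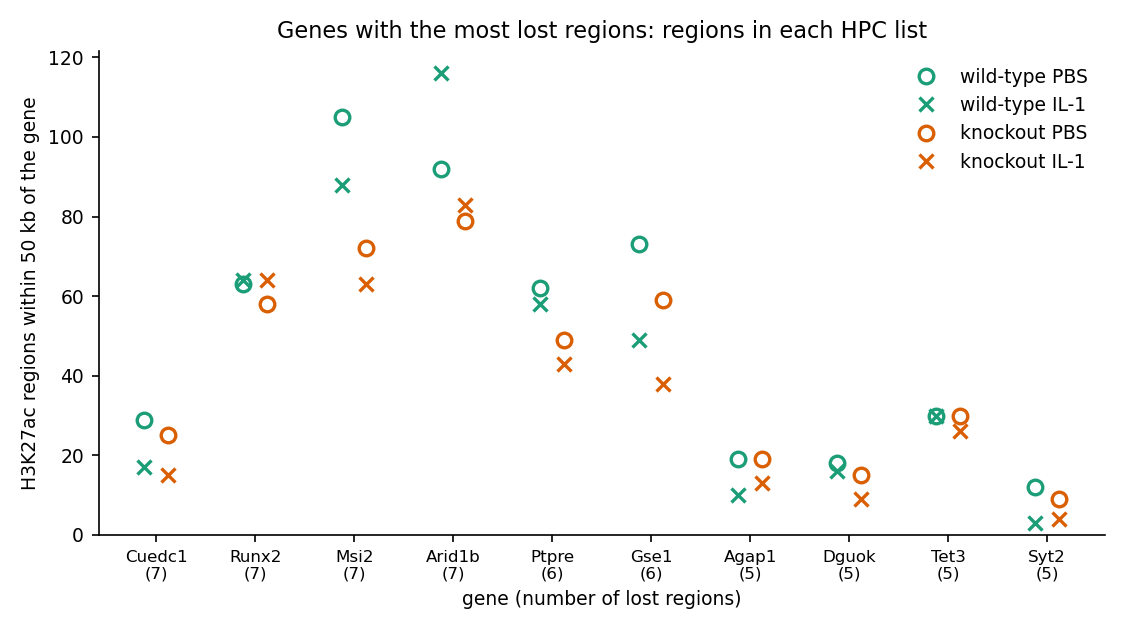
Number of H3K27ac regions within 50 kb of the 10 genes with the most lost regions (10 genes tie at 5, of which the 4 with the strongest lost region are shown), in each of the 4 HPC lists (wild type green, knockout orange, PBS circles, IL-1 crosses). Runx2 and Arid1b lie higher after IL-1 in both genotypes, Tet3 has 30 regions in 3 of the lists, and the other genes lie lower after IL-1 in both genotypes.

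Within 50 kb, the genes of IL-1 signalling had the largest share of members near a lost region among the 10 lists examined. Within 10 kb the stem cell list came first, with 9 of 26 genes against 6 of 30 for IL-1 signalling and 1487 of all 15781 genes. Of 30 genes of IL-1 receptor signalling and NF-kB within 50 kb of a wild-type PBS region, 15 had a lost region within 50 kb, against 21.2% of all genes, and 7 (23.3%) had a gained region. Their windows held 263 wild-type PBS regions, of which 19 were lost (7.22%), where the same count over all genes was 4.25%. The 15 genes ran from the receptor (Il1r1) and its antagonist (Il1rn) through the kinases and adaptors (Irak2, Irak3, Tab1, Tab2 and Map3k7) to the NF-kB subunits (Nfkb2, Rela and Relb), their inhibitors (Nfkbia, Nfkbie and Bcl3, an atypical member) and the targets Icam1 and Ccl3. A lost region lay inside Tab1, which encodes a partner of the kinase TAK1, at chr15:80134303-80134564. It had a PBS −log10 p of 4.70 (wild type) and 28.1 (knockout), and strong IL-1 peaks were 18 bp away in wild type (18.3) and 53 bp away in knockout (14.9). At Map3k7, which encodes TAK1 itself, the lost region lay 24943 bp from the gene and 24385 bp from the nearest wild-type IL-1 peak, and its PBS −log10 p was 7.89 (wild type) and 6.17 (knockout). The lost region near Il1rn was the one over the Psd4 promoter, 15696 bp from Il1rn. Only Irak2 and Tab1 of the 15 held a lost region within the gene, and the others had it in a neighbouring gene or between genes. At all but Il1rn, Tab2, Map3k7 and Bcl3, a lost region had a peak of either IL-1 list within 500 bp. At Irak2, Irak3, Rela and Icam1, the knockout PBS region overlapping the only lost region itself reached an IL-1 peak. The same held for 1 of the 2 lost regions at Tab1 and at Nfkbia. The covered length around Il1r1 went from 20.3 kb after PBS to 23.3 kb after IL-1 in wild type and from 14.7 kb to 15.6 kb in knockout. Irak2 and Nfkbia likewise had more covered length after IL-1 in wild type (33.6 and 37.5 kb, and 9.42 and 10.9 kb) and less in knockout (29.3 and 25.9 kb, and 9.06 and 7.77 kb). At 10 of the 15 genes it was lower after IL-1 in both genotypes (Il1rn, Tab1, Tab2, Map3k7, Nfkb2, Rela, Relb, Nfkbie, Ccl3 and Bcl3). Around Map3k7 it was 3.65 and 2.38 kb in wild type and 3.05 and 2.48 kb in knockout. Choosing genes near a lost region favours such a fall, so these values are a description. Over all 3340 genes near a lost region, covered length was lower in 74.9% in wild type and 95.6% in knockout. Over all 15781 genes it was lower in 55.2% and 83.0%.

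Most stem cell genes near a lost region held one within the gene itself. Over all lost regions, 63.0% lay inside a protein-coding gene of any kind, which is a count of regions and not of genes. Of 26 stem cell identity genes near a wild-type PBS region, 9 (34.6%) had a lost region within 50 kb and 4 (15.4%) had a gained one, and 8 of the 9 held a lost region inside the gene. Among these were Mecom, Prdm16, Meis1, Gata2, Erg, Angpt1 and Esam. Meis1, a homeodomain factor of HSCs, had 4 lost regions and 0 gained, and its covered length was 48.0 kb after PBS and 48.5 kb after IL-1 in wild type and 52.1 kb and 39.1 kb in knockout. Angpt1, the ligand of the receptor Tie2, had 5 lost regions and 1 gained, with 13.8 kb and 12.4 kb in wild type and 18.1 kb and 9.18 kb in knockout. Prdm16, a zinc finger regulator of HSC maintenance, went from 22 regions to 11 in wild type and from 13 to 5 in knockout. Its 1 lost region lay 16054 bp from the nearest wild-type IL-1 peak. Choosing genes for their lost regions favours lower values after IL-1, so the values of these genes are a description. The share of regions lost over the list was 5.61%, where the same count over all genes was 4.25%. Gene length was not tested.

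Of 24 granulocyte and monocyte genes, 9 (37.5%) had a lost region and 9 a gained one, where the shares over all genes were 21.2% and 14.0%. Of the wild-type PBS regions near these genes, 6.14% were lost, where the same count over all genes was 4.25%. Cebpe, the factor of granule gene expression, had 2 lost regions. The nearer lay across the gene start at chr14:54712136-54712390, with −log10 p values of 5.47 and 3.56 after PBS, and IL-1 peaks lay 530 and 580 bp away. Mpo (myeloperoxidase) had 2 lost regions and 1 gained, and Csf1r (the receptor of macrophage colony-stimulating factor) likewise. Of 29 lymphoid genes, 9 (31.0%) had a lost region and 8 (27.6%) a gained one. The share of wild-type PBS regions lost near the lymphoid genes was 4.31%, close to the 4.25% over all genes. Flt3, the cytokine receptor of lymphoid-primed progenitors, had 4 lost regions and 2 gained among 37 wild-type PBS regions. The lost region with the highest lower rank in the PBS lists, chr5:147395839-147396273, had values of 5.56 and 5.98 after PBS and lay 396 bp from a wild-type IL-1 peak of 104. None of the 4 Flt3 regions overlapped a peak of any HSC H3K27ac list, as held for 31.3% of all lost regions. They overlapped a peak in 0, 0, 1 and 2 of the HPC H3K4me1 lists, where 78.7% of lost regions had one in all 3.

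In the other 6 lists the share with a lost region was between 18.2% and 32.1%, where the background was 21.2%. Counted by region, 4.87% of the wild-type PBS regions near interferon genes and 3.73% near megakaryocyte and erythroid genes were lost. The remaining lists had between 2.97% and 3.85%, and all genes had 4.25%. Interferon response genes had lost regions at 9 of 28 (32.1%), with 4 in Irf2, a repressor of interferon genes. Its covered length went from 45.6 kb to 39.4 kb in wild type and from 38.8 kb to 26.4 kb in knockout. Choosing a gene for its lost regions favours such a fall. Megakaryocyte and erythroid genes had lost regions at 7 of 24 (29.2%), with 2 near Runx1, the Runt factor of blood formation. Immediate early genes had 6 of 25 (24.0%), with none inside a gene of the list and the nearest 9937 bp from Txnip. Cell cycle genes had 7 of 30 (23.3%), among them a region within Ccnd1 (cyclin D1) with −log10 p values of 4.16 and 5.82 after PBS. Housekeeping genes had 4 of 18 (22.2%), the nearest 2217 bp from the elongation factor gene Eef2, and 0 gained. Genes of the MLL3 and MLL4 complexes had 2 of 11 (18.2%), namely Wdr5, a shared core subunit, which held one, and Rbbp5, which had one 48231 bp away. No lost region lay in the top 25% of both PBS lists, near these genes or elsewhere.

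**Figure D5:**
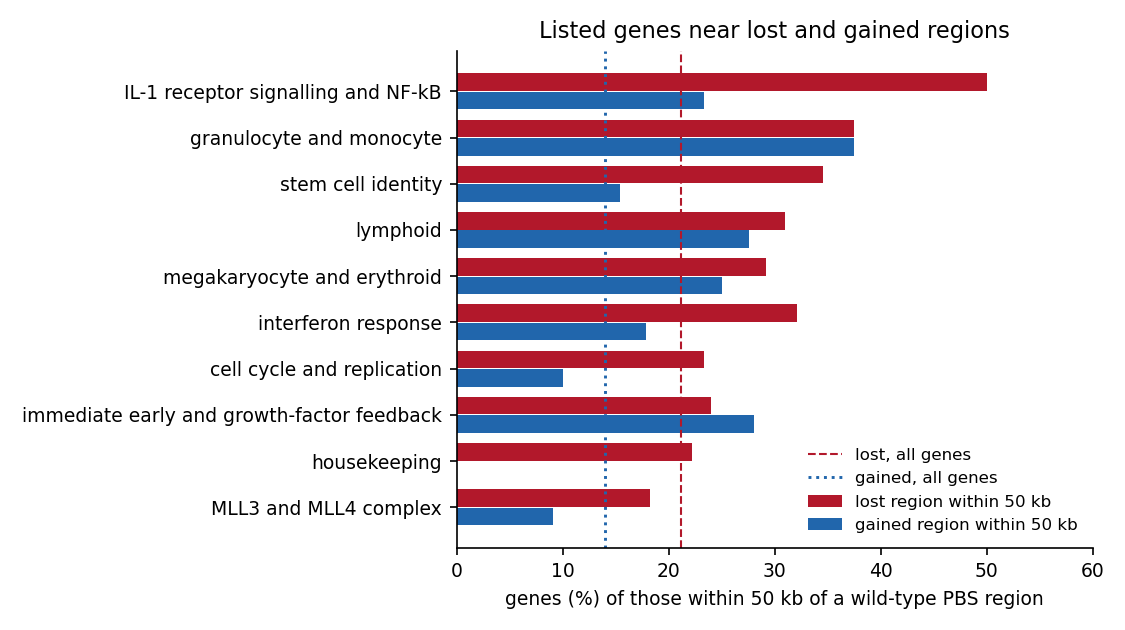
Share of the genes of each list, in percent of those within 50 kb of a wild-type PBS region, with a lost (red) or gained (blue) region within 50 kb; the dashed and dotted lines give the shares over all 15781 genes, 21.2% and 14.0%. The IL-1 and NF-kB list (15 of 30 genes) reaches furthest for lost regions, and the cell cycle, housekeeping and immediate early lists lie between 22.2% and 24.0%.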

How the data were processed

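ChIPmentation of H3K27ac and H3K4me1 in HPCs and HSCs gave 69 samples, 6 of them input. The tools named per the submitters' processing notes are Novoalign and MACS2, with build mm10 (GRCm38). The sources used here give no tool versions, no filter on peaks and no account of how libraries were combined. Across the series, the authors deposited 18 pooled peak lists with each peak's fold enrichment (a ratio), −log10 p and −log10 q, used here only to describe or rank peaks within a list. No read numbers were used, so depth is unknown. Touching peaks were merged, 1 shared base counted as presence, and Wilson 95% intervals and limits on a count of 0 cover counting error only. Gene positions and promoter windows were taken from RefSeq tables of GRCm38.p6. A start was known for 16456 of 20661 autosomal protein-coding genes, and both gene ends were used for the other 4205. Of 263 listed genes 255 matched.

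Genes were named as the nearest to the 10 strongest lost regions (by the lower of both PBS percentiles) and to the 5 widest, the 10 genes with the most lost regions, and in each list the gene nearest to a lost region, because no lost region was in the top 25% of both PBS lists. Some genes that this rule or the lists take in are counted but not reported here by name. Other genes, the isolated regions and the promoters were chosen after their values were seen. The members and gene lists were chosen with earlier results of these data known. The interval code (Python 3.11.15, numpy 2.4.6, pandas 2.3.3) was tested on simulated data. Alternatives changed the overlap, distance, list size, q threshold, chromosomes and gene window.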

Additional observations from a re-analysis of the deposited data

How the results depend on the processing

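No paired analysis was possible because each group has 1 pooled list, and for the same reason no library could be left out. Of 88 alternative values, 37 moved by less than their interval or 1.5 times. The number of lost regions (1859) became 909 (2.23% of wild-type PBS regions) and 733 (1.80%) when an IL-1 peak within 500 or 1000 bp counted as present, 280 (1.34%) with lists limited to equal covered bases, and 0 (0%) in the top 25% of each PBS list, which left no ratio or share to give. The percent was 4.87 with equal numbers of peaks. With 2 alternatives chosen after seeing the data, it was 5.27 for regions of the knockout PBS list and 3.52 when the knockout PBS region also had to lack an IL-1 peak. The ratio of lost to gained regions (1.31) was 1.06 and 1.02 at 500 and 1000 bp, 1.51 with equal numbers and 2.68 at a −log10 q of at least 2. It reversed to 0.229 with equal covered bases, a limit that kept 38717 regions of the knockout IL-1 list and 20839, 21812 and 21218 of the others.

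The share of lost regions with H3K27ac in wild-type HSCs after PBS (51.4%) was 46.1% with an overlap of 50% of the shorter region, 58.3% at 1000 bp, 54.3% with equal numbers, 76.4% with equal bases and 62.0% at the q threshold. The same share of gained regions (19.6%) was 17.8%, 17.8%, 20.8%, 43.3% and 24.2%. The H3K4me1 share (87.0%) was 80.5%, 92.9% and 89.1% with 50% overlap, equal bases and the q threshold, and that of gained regions (77.0%) 72.6%, 90.6% and 80.2%. The share near a gene start was 11.9% at the q threshold and 8.29% with the knockout region also lacking an IL-1 peak, and the share inside a gene was 58.5% at 1000 bp and 57.5% with equal bases. Within 10 kb of the gene, the counts of genes with a lost region were 6 for IL-1, 5 for granulocyte and monocyte, 4 for megakaryocyte and erythroid, 3 for interferon, 2 for cell cycle, 1 for immediate early and 1 for MLL3 and MLL4 genes, 9 for stem cell, 6 for lymphoid and 3 for housekeeping genes, and 1487 over all genes, so the IL-1 list no longer came first. With lost regions of the top 25% of both PBS lists, the count was 0 for all 10 gene lists. For moved values other than those set by fewer regions or peaks, the cause was not tested. The planned comparison of motifs between whole regions was not run. Depth, unknown here, limits which weak peaks are listed.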
